A study of Homo sapiens with 8 samples.

Results

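The MYC network of transcription factors was followed across 8 arrays of 2 human multiple myeloma lines. Its 10 genes were selected on their symbols and on mean signal over all arrays in the deposited table, 1 transcript cluster each, out of 18417 genes with a single symbol there. All 10 were measured. They are MYC, MYCL and MYCN, which activate genes, their shared partner MAX, and MXD1, MXD3, MXD4, MXI1, MNT and MGA, which also bind MAX. A gene with several clusters would have been represented by the one with the brightest mean signal, but each of these genes had 1. No comparison between conditions entered this rule, but the gene set was proposed with earlier results of these data known, among them the fall of MYC in U266/s.

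MYC family proteins bind the E-box sequence CACGTG as pairs with MAX and raise transcription of genes for ribosome synthesis, nucleotide synthesis and growth. MXD proteins and MXI1 pair with MAX at the same sequence and recruit the SIN3 histone deacetylase complex, so they oppose MYC. MNT does so as well, and MGA is a scaffold of a polycomb complex called PRC1.6. In myeloma, MYC is frequently activated by rearrangement, and the plasma cell factor IRF4 is known to sustain its expression.

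U266/LR7 is a melphalan-resistant line, and U266/s is described as its parent. Each line had 4 conditions, namely melphalan with inhibitors against miR-221 and miR-222, melphalan alone, the inhibitors alone, and a negative control oligonucleotide. Melphalan, a DNA-alkylating drug, was used at 100 µM, the inhibitors at 100 nM, and total RNA was taken 12 h after treatment. There was 1 array per condition. The labels tag the melphalan-alone arrays as not transfected, while the protocol text can be read as giving them the control oligonucleotide, so transfection and melphalan cannot be told apart between these arrays and the controls. Nothing states that arrays came from separate cultures, so the array-to-array spread behind the p-values may be technical. With 1 array per condition, that spread also holds any difference in the inhibitor effect between the lines or melphalan states. Arrays without and with inhibitors thus stand in for replicates.

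All values are log2 signals from the authors' processing, and differences are log2 fold changes from 1 limma fit to all genes, with Benjamini-Hochberg adjustment over the 18417 genes and a threshold of 0.05. Each line and melphalan state holds 2 arrays, without and with inhibitors, and an error after a fold is its SE from limma. Correlation between arrays was 0.986 to 0.996 for pairs from U266/LR7, 0.939 to 0.994 for pairs from U266/s and 0.909 to 0.933 for pairs of different lines. The 2 melphalan arrays of U266/s had the narrowest signal distributions, with interquartile ranges of 3.25 and 3.34, against 3.58 to 3.71 on the other arrays. Of 10 measured plasma cell markers 7 lay above the upper quartile of all genes on all 8 arrays, including SDC1, TNFRSF17 and IRF4, and the mean of the 10 was 10.06 to 10.90. The others were MZB1, above it on 4 arrays, SLAMF7, on 2, and CD38, on 0. The B cell markers MS4A1 and CD22, the T cell marker CD3D and the myeloid marker LYZ lay under the lower quartile on all 8. Of the 3 measured B cell, 3 T cell, 3 myeloid and 4 epithelial and stromal markers, none lay above the upper quartile on all 8 arrays. KRT18 did so on 3 arrays. PAX5, CD8A, CD14, CSF1R, KRT18, COL1A1 and COL1A2 lay under the lower quartile on 0 arrays, CD3E on 4 and EPCAM on 5. As background, U266 has been described as a myeloma line that expresses MYCL, with little MYC. In these arrays that description matched U266/LR7 more closely than U266/s. Whether the 2 lines share an origin was not tested.

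Promoter sequences were examined for the E-box because MAX-bound factors regulate genes of their own network. The RefSeq table (GRCh38.p14) held 14 windows of 300 bases, from 250 bases before to 50 bases after a start, for 9 of the 10 genes. There was none for MYC. The motif searched was CACGTG, which reads the same on both strands. It was found in 2 of these 14 windows (14.3%), against 7.26% of all 35116 windows in the table. These 2 windows belong to MXD4 and MNT, and they are shown because they hold the motif. MXD4 and MNT were the only members whose signal was higher with melphalan in all 4 matched array pairs. Over all genes the share was 21.4%, so 2 of 10 is near the background. By limma the rise passed for MXD4 in U266/s only and for MNT in neither line. A link between the motif and this rise was not tested. Capitals mark the motif, at 238 to 233 bases before the start in MXD4 (chr4:2262060-2262359, minus strand) and 193 to 188 bases before the start in MNT (chr17:2401011-2401310, minus strand).
MXD4: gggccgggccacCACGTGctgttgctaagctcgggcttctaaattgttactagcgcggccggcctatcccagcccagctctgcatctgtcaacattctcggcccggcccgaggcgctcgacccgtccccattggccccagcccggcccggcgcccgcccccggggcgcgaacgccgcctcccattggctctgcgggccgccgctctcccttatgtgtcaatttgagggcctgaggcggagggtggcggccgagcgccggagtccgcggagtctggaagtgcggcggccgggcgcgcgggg
MNT: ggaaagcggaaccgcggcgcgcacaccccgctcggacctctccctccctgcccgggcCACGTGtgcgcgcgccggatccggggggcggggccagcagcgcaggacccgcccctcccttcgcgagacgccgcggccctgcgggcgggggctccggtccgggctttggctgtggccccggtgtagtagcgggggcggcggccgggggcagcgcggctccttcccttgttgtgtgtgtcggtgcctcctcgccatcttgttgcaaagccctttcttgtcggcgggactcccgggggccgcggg
A match of letters is a description and does not show binding.

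MYC, the founding oncogene of the family, had the largest line differences of the 10 genes and the largest melphalan response in U266/s. Its signal in U266/LR7 was 6.57 with melphalan and 6.86 with melphalan and inhibitors, against 6.54 in the control and 6.59 with inhibitors. In U266/s it was 10.07 with melphalan and 9.73 with melphalan and inhibitors, against 12.45 in the control and 12.29 with inhibitors. All 4 U266/LR7 arrays thus lay far below all 4 U266/s arrays, and within U266/s both melphalan arrays lay below both others. Without melphalan MYC was lower in U266/LR7 by -5.81 ± 0.17 (SE), or 55.9-fold (limma adjusted p = 1.74e-09). With melphalan the difference was -3.19 ± 0.17, or 9.11-fold (adjusted p = 1.96e-07). In U266/LR7 the signal lay under the median gene on every array, between the 37.1st percentile and that median, so background fluorescence may limit these folds, and no detection call was used here.

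Each array read RNA from a whole culture, so fewer cells with a transcript and less of it per cell cannot be told apart. Within U266/s MYC fell by 2.47 ± 0.17 with melphalan, or 5.54-fold (adjusted p = 3.06e-06). The fall was of similar size in both pairs, -2.38 without inhibitors and -2.56 with them. In U266/LR7 the fold was 0.15 ± 0.17 (95% interval -0.22 to 0.52, adjusted p = 0.724). The difference between the responses was 2.62 ± 0.24 (adjusted p = 1e-04). MYC signal in U266/LR7 lay under the median gene without melphalan too, and whether a floor of the signal limited a fall there was not tested. These 4 MYC calls held in all alternatives tried, with the U266/s response between -2.67 and -2.22.

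MYCL, the family member first found in lung cancer, was higher in U266/LR7. Its signal there was 9.95 with melphalan and 9.87 with melphalan and inhibitors, against 10.41 in the control and 10.39 with inhibitors. In U266/s it was 9.13 with melphalan and 9.03 with melphalan and inhibitors, against 9.06 in the control and 8.61 with inhibitors. Every U266/LR7 array lay above every U266/s array, the reverse of MYC. The line difference was 1.57 ± 0.15 without melphalan, or 2.97-fold (adjusted p = 8.66e-06), and 0.83 ± 0.15 with it, or 1.78-fold (adjusted p = 0.000771). Within U266/LR7 both melphalan arrays lay below both others, at a fold of -0.49 ± 0.15 that did not pass (adjusted p = 0.0775). Within U266/s the groups overlapped, at 0.25 ± 0.15 (adjusted p = 0.2). The responses differed by -0.74 ± 0.21 (adjusted p = 0.0257). That call was lost without the U266/LR7 melphalan array (-0.69, adjusted p = 0.139), its combination array (-0.79, adjusted p = 0.075), or the melphalan (-0.78, adjusted p = 0.0601), inhibitor (-0.55, adjusted p = 0.131) or combination array (-0.70, adjusted p = 0.0795) of U266/s. The U266/s fold passed as a rise after quantile (0.57) and cyclic loess normalization (0.55), and the U266/LR7 fold as a fall after cyclic loess (-0.56).

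MYCN, the family member amplified in neuroblastoma, had its lowest signal in both lines under melphalan with inhibitors. It was 7.28 with melphalan and 7.15 with melphalan and inhibitors in U266/LR7, against 7.58 in the control and 7.26 with inhibitors. In U266/s it was 7.75 with melphalan and 7.49 with melphalan and inhibitors, against 8.33 and 7.98. It was the only one of the 10 genes lower with melphalan in all 4 matched pairs, as were 13% of all genes. It fell by 0.54 ± 0.14 in U266/s (adjusted p = 0.00859), while the U266/LR7 fold was -0.21 ± 0.14 (adjusted p = 0.48), and the difference between the responses did not pass (0.34 ± 0.20, adjusted p = 0.247). Between the lines MYCN was lower in U266/LR7, by -0.40 ± 0.14 with melphalan (adjusted p = 0.0305) and by -0.74 ± 0.14 without it (adjusted p = 0.00135). The fall in U266/s was not called with transfection as 3 levels (-0.47, adjusted p = 0.0809), nor without that line's control (-0.49, adjusted p = 0.0837) or melphalan array (-0.54, adjusted p = 0.0525). The line difference with melphalan was lost without any 1 of the 4 melphalan-treated arrays (-0.49 to -0.31, adjusted p from 0.0888 to 0.274).

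**Figure D1:**
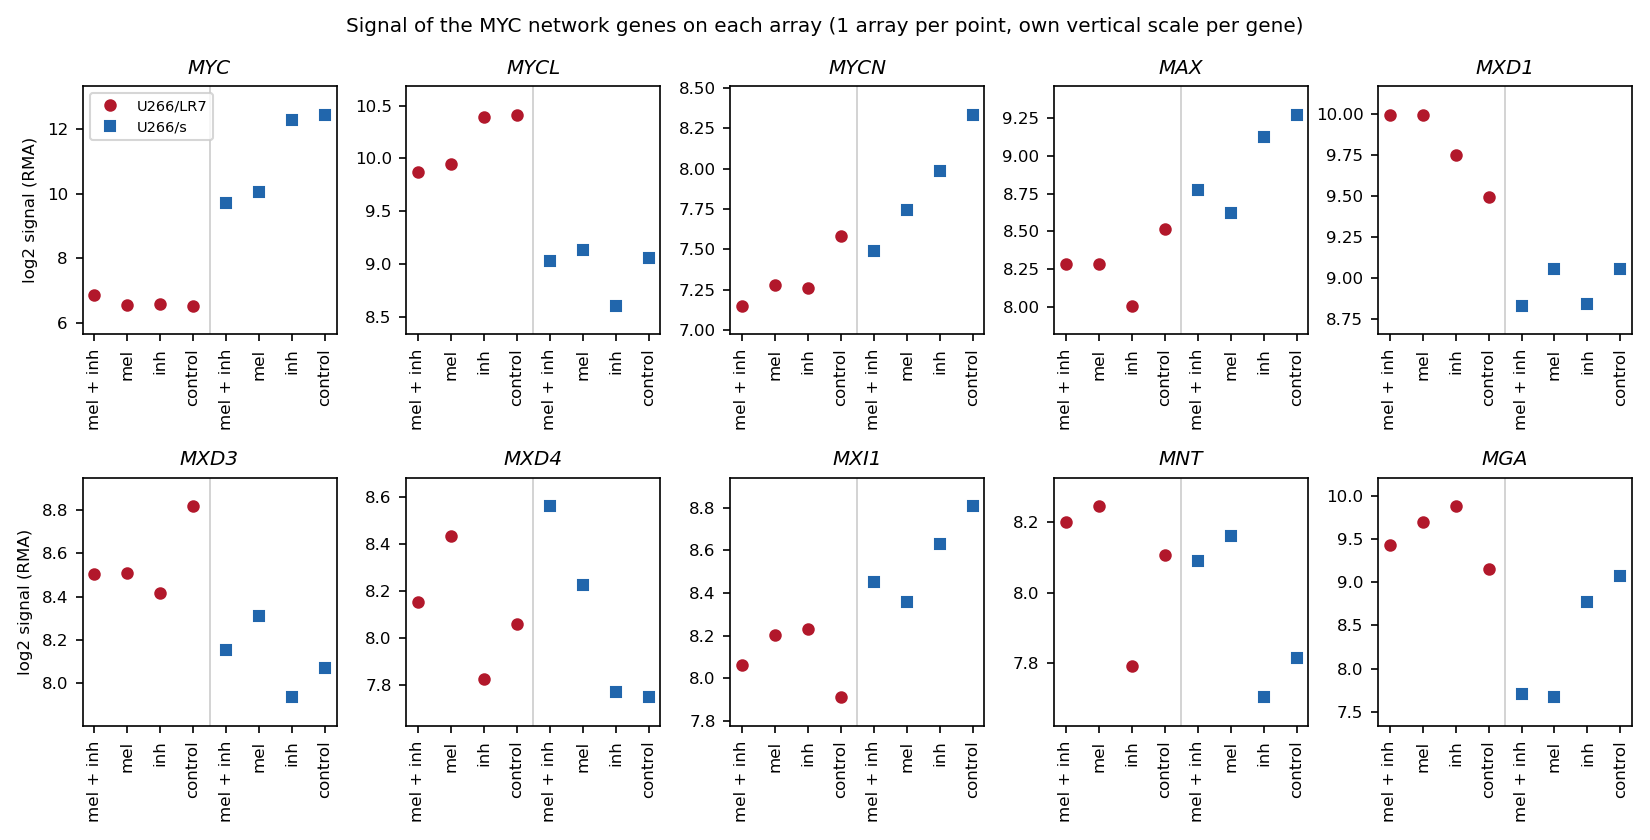
Log2 signal of each MYC network gene on each of the 8 arrays, 1 point per array, with U266/LR7 as circles on the left and U266/s as squares on the right (mel, melphalan; inh, inhibitors of both miRNAs). The vertical scale differs between genes. MYC spans 6.54 to 12.45 and separates the lines completely, MYCL does so in the other direction, and MGA is lowest on the 2 U266/s melphalan arrays (7.67 and 7.71).

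MAX, the shared partner of these factors, was lower in U266/LR7 without melphalan. Its signal in U266/LR7 was 8.29 with melphalan and 8.29 with melphalan and inhibitors, against 8.51 in the control and 8.01 with inhibitors. In U266/s it was 8.62 with melphalan and 8.77 with melphalan and inhibitors, against 9.27 and 9.13. The U266/LR7 arrays all lay below the U266/s arrays. The line difference without melphalan was -0.94 ± 0.17, or 1.91-fold lower (adjusted p = 0.0011), and it held in all alternatives. A fit without the melphalan by line interaction gave a line difference pooled over both melphalan states, of -0.67 (adjusted p = 0.0197). With melphalan the line difference was -0.41 ± 0.17 (adjusted p = 0.0629). It passed there with each of the 3 scalings (-0.73 to -0.47) and without the U266/LR7 control (-0.41, adjusted p = 0.0206), the U266/LR7 inhibitor array (-0.41, adjusted p = 0.0202) or the U266/s melphalan array (-0.60, adjusted p = 0.0481).

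Within U266/s MAX fell by 0.50 ± 0.17 with melphalan (adjusted p = 0.0346), a call that 9 of 18 alternatives ended. Median centring gave -0.44 (adjusted p = 0.0532), cyclic loess -0.30 (adjusted p = 0.202) and quantile normalization -0.18 (adjusted p = 0.42). Transfection as 3 levels gave -0.30 (adjusted p = 0.298). It was also lost without the control (-0.49, adjusted p = 0.179), melphalan (-0.32, adjusted p = 0.287) or inhibitor array of U266/s (-0.51, adjusted p = 0.114), and without either U266/LR7 melphalan-treated array (-0.50 each, adjusted p = 0.0533 and 0.0534). The U266/LR7 fold was 0.02 ± 0.17 (adjusted p = 0.966), and the responses differed by 0.52 ± 0.24 (adjusted p = 0.144). Without the U266/LR7 control array that difference passed (0.78, adjusted p = 0.025).

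Of the MXD group, MXD1, a repressor known to rise when myeloid cells differentiate, was higher in U266/LR7. Its signal in U266/LR7 was 9.997 with melphalan and 9.99 with melphalan and inhibitors, against 9.49 in the control and 9.75 with inhibitors. In U266/s it was 9.05 with melphalan and 8.83 with melphalan and inhibitors, against 9.05 and 8.84. All U266/LR7 arrays lay above all U266/s arrays. The line difference was 1.05 ± 0.16 with melphalan, or 2.07-fold (adjusted p = 0.000205), and 0.68 ± 0.16 without it (adjusted p = 0.00539). The difference without melphalan was lost without the U266/s inhibitor array (0.56, adjusted p = 0.0915). Melphalan folds were 0.37 ± 0.16 in U266/LR7 (adjusted p = 0.208) and -0.00 ± 0.16 in U266/s (adjusted p = 0.991).

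MXD3, which is associated with proliferating cells, was higher in U266/LR7 without melphalan, and MXI1, the MAX interactor, was lower. MXD3 signal ranged from 8.42 to 8.82 on the U266/LR7 arrays, against 7.93 to 8.31 on the U266/s arrays, with no overlap. Without melphalan it was higher by 0.62 ± 0.15 (adjusted p = 0.00684), and with melphalan the fold was 0.28 ± 0.15 (adjusted p = 0.143). MXI1 ranged from 7.91 to 8.23 in U266/LR7, against 8.36 to 8.81 in U266/s, again with no overlap. Without melphalan it was lower by -0.65 ± 0.16 (adjusted p = 0.00773), and with melphalan the fold was -0.27 ± 0.16 (adjusted p = 0.172). The calls of both genes without melphalan depended on the control arrays. Without the U266/LR7 control they gave 0.47 (MXD3, adjusted p = 0.0509) and -0.45 (MXI1, adjusted p = 0.0661), and without the U266/s control 0.59 (MXD3, adjusted p = 0.0627) and -0.51 (MXI1, adjusted p = 0.106). In the melphalan response of U266/s MXD3 passed as a rise after quantile normalization (0.50, adjusted p = 0.0231). With melphalan the MXI1 line difference passed after quantile (-0.58) and cyclic loess normalization (-0.49). The fit without the interaction gave line differences pooled over both melphalan states. These passed for MXI1 (-0.46, adjusted p = 0.0471) and MXD3 (0.45, adjusted p = 0.0402).

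MXD4, a repressor linked to quiescent cells, rose with melphalan in U266/s. In U266/LR7 its signal was 8.43 with melphalan and 8.15 with melphalan and inhibitors, against 8.06 in the control and 7.83 with inhibitors. In U266/s it was 8.23 with melphalan and 8.56 with melphalan and inhibitors, against 7.75 and 7.77. Melphalan-treated arrays lay above their untreated counterparts within each line. The rise in U266/s was 0.63 ± 0.17, or 1.55-fold (adjusted p = 0.0113), whereas the U266/LR7 fold of 0.35 ± 0.17 did not pass (adjusted p = 0.289) and the responses did not differ (-0.28 ± 0.24, adjusted p = 0.431). The rise was lost without the U266/s control (0.59, adjusted p = 0.101) or its combination array (0.39, adjusted p = 0.147). Between the lines MXD4 gave -0.10 ± 0.17 with melphalan and 0.18 ± 0.17 without it (adjusted p = 0.635 and 0.48).

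MNT, a broadly expressed repressor that pairs with MAX, behaved like MXD4 in direction. It was higher with melphalan in all 4 matched pairs, as were 21.4% of all genes, with differences of 0.14 and 0.41 in U266/LR7 and 0.34 and 0.39 in U266/s. The folds were 0.27 ± 0.14 in U266/LR7 (adjusted p = 0.33) and 0.37 ± 0.14 in U266/s (adjusted p = 0.0582). The U266/s fold passed as a rise with each of the 3 scalings (0.43 after median centring, 0.62 after quantile normalization and 0.43 after cyclic loess), and without the U266/LR7 control (adjusted p = 0.0342) or inhibitor array (adjusted p = 0.0339), where it stayed at 0.37. The U266/s fold also passed with the filter on mean signal (adjusted p = 0.0458) and with limma run without the intensity trend (adjusted p = 0.0482). MNT did not differ between the lines (0.10 ± 0.14 with melphalan, adjusted p = 0.585, and 0.19 ± 0.14 without it, adjusted p = 0.367).

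MGA, the PRC1.6 scaffold, fell with melphalan in U266/s and was the gene other than MYC with the widest range. Its signal in U266/s was 7.67 with melphalan and 7.71 with melphalan and inhibitors, against 9.07 in the control and 8.77 with inhibitors. In U266/LR7 it was 9.70 with melphalan and 9.43 with melphalan and inhibitors, against 9.15 in the control and 9.88 with inhibitors, so the melphalan difference ran upward without inhibitors (0.55) and downward with them (-0.45). The fall in U266/s was -1.23 ± 0.22, or 2.35-fold (adjusted p = 0.000989), and it held in all 18 alternatives. The U266/LR7 fold was 0.05 ± 0.22 (adjusted p = 0.947), and the responses differed by 1.28 ± 0.31 (adjusted p = 0.0119). That difference was not called after cyclic loess (0.96, adjusted p = 0.0572), nor without the U266/LR7 melphalan array (1.07, adjusted p = 0.0686) or the U266/s control (1.05, adjusted p = 0.0951). With melphalan MGA was higher in U266/LR7 by 1.87 ± 0.22, or 3.67-fold (adjusted p = 3.68e-05). Without melphalan the fold was 0.59 ± 0.22 (adjusted p = 0.0601), and 6 of 19 alternatives gave a fold past the threshold. They were median centring (0.63, adjusted p = 0.0435), quantile normalization (0.60, adjusted p = 0.0476), the filter on mean signal (0.59, adjusted p = 0.0419) and transfection as 3 levels (0.59, adjusted p = 0.0385). The others were leaving out the U266/LR7 control (1.05) and the fit without the interaction (1.23, adjusted p = 0.0161). The line difference of that last fit is pooled over both melphalan states, so it is not specific to arrays without melphalan.

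Protein-coding genes that fell in U266/s with melphalan had a median genomic span of 57.8 kb, and those that rose 11.9 kb. MGA, with 149 kb, and MAX, with 96.6 kb, were the longest members and were called lower there. MYC and MYCN, which also fell, span 7.52 and 6.46 kb. MXI1, with 79.8 kb, did not pass in U266/s (-0.31 ± 0.16, limma adjusted p = 0.135). The part of span in these results was not tested.

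**Figure D2:**
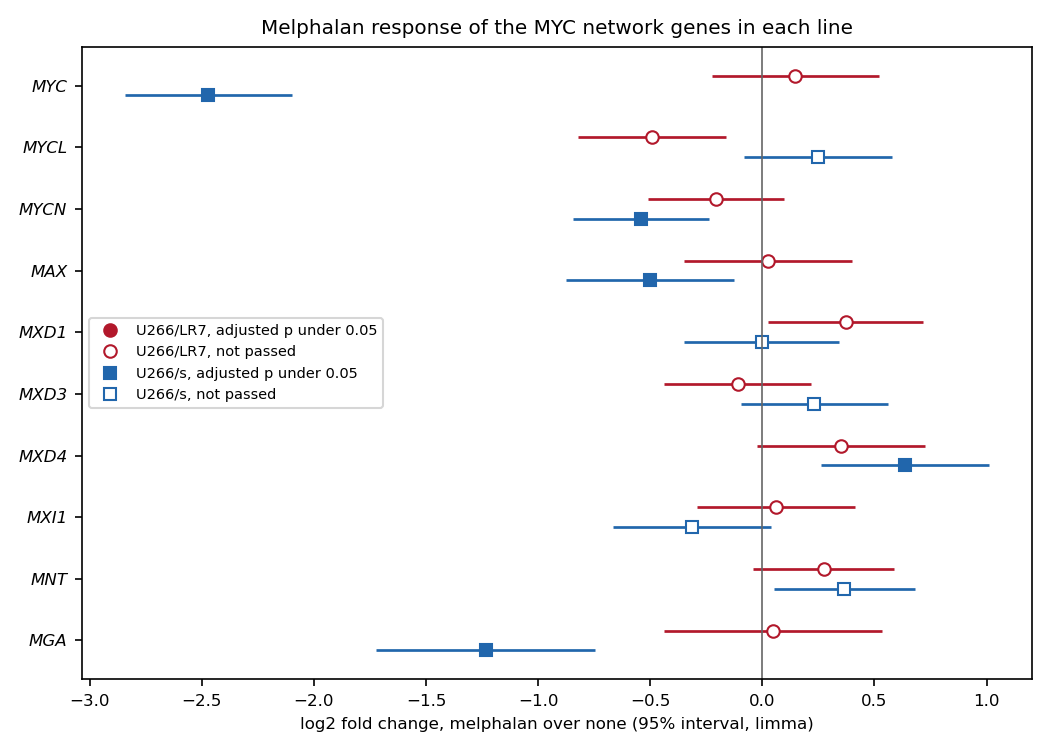
Log2 fold change of melphalan over no melphalan for each gene, with 95% intervals from limma, in U266/LR7 (circles) and U266/s (squares); filled symbols passed an adjusted p of 0.05. MYC (-2.47) and MGA (-1.23) fell in U266/s, and all U266/LR7 symbols are open.

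With melphalan in U266/LR7, limma called 0 of the 10 genes, where 6.62% of all genes were called (3.02% higher, 3.61% lower). At an unadjusted p under 0.05 there were 2, MYCL and MXD1. In U266/s 5 of 10 were called, against 43.4% of all genes, so the share was near the background. MYC, MYCN, MAX and MGA were lower (24.9% of all genes) and MXD4 was higher (18.4% of all genes). The count in U266/s was 2 without that line's control array and 3 without its melphalan array. The median fold of the 10 genes was 0.05 in U266/LR7 and -0.16 in U266/s, against 0.05 and 0.08 over all genes. Responses differed between the lines for MYC, MYCL and MGA (3 of 10, against 23.9% of all genes, 17.9% toward higher and 5.99% toward lower values in U266/LR7), a count of 1 without the U266/LR7 melphalan array.

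Between the lines with melphalan, MXD1, MYCL and MGA were higher and MYC and MYCN lower in U266/LR7 (5 of 10, against 51.7% of all genes, 27.7% higher and 24% lower). Without melphalan MYCL, MXD1 and MXD3 were higher, and MYC, MYCN, MAX and MXI1 lower, in U266/LR7 (7 of 10, against 34.7% of all genes, 16.9% higher and 17.8% lower). The median folds were -0.00 and 0.19, against -0.08 and -0.04 over all genes. The members thus moved both ways, and their medians say little about single genes.

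**Figure D3:**
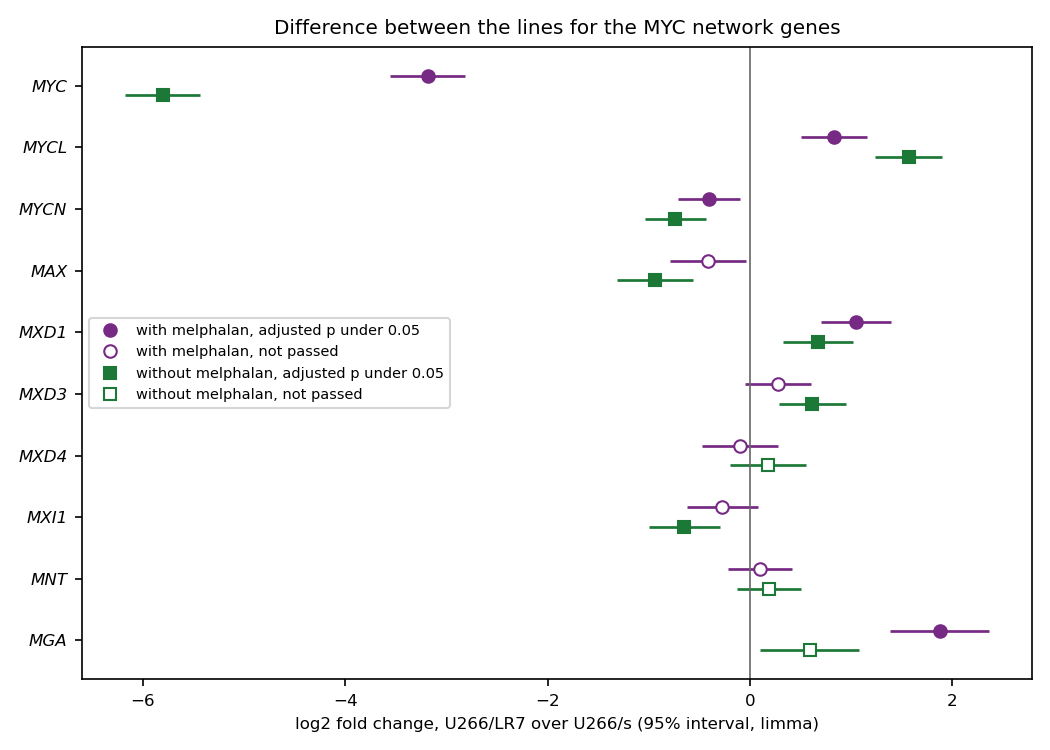
Log2 fold change of U266/LR7 over U266/s for each gene, with 95% intervals from limma, with melphalan (circles) and without it (squares); filled symbols passed an adjusted p of 0.05. MYC lies far to the left in both states (-3.19 and -5.81), and MYCL, MXD1 and MGA lie to the right.

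The inhibitors were directed at 2 miRNAs that share their seed, the bases that pair with a target. The mature sequences are shown from RefSeq (GRCh38.p14, chromosome X, minus strand) with the seed, bases 2 to 8, in capitals. They lie at chrX:45746180-45746202 and chrX:45747036-45747056.
hsa-miR-221-3p: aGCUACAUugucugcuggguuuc
hsa-miR-222-3p: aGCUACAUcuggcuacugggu
Over the 4 matched pairs with and without inhibitors, limma called 0 of the 10 genes, where 0.0434% of all genes were called (8 genes, 0.0271% higher and 0.0163% lower). At an unadjusted p under 0.05 there was 1, MYCN. Its fold was -0.26 ± 0.10 (95% interval -0.48 to -0.05, adjusted p = 0.692). MYCN, MYCL, MXD3 and MNT were each lower with inhibitors in 4 of 4 pairs, as were 6.77% of all genes. The pairs are not alike, since by the labels the arrays without inhibitors were not transfected where melphalan was given. In those pairs inhibitors and transfection cannot be told apart. The other folds lay between -0.17 (MXD3) and 0.05 (MGA), and for MYC the interval ran from -0.30 to 0.22. In single arrays MYC with inhibitors against the control differed by 0.05 in U266/LR7 and by -0.16 in U266/s. Among melphalan arrays, inhibitors against none gave 0.30 in U266/LR7 and -0.34 in U266/s. These single-array differences have no test.

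Other genes of the pathway were read from lists chosen with earlier results of these data known. In the MLX branch, a parallel set of E-box factors that sense sugar, MLX fell in U266/s with melphalan by 0.99 ± 0.13 (adjusted p = 0.000128). Its partner MLXIP rose by 0.45 ± 0.14 (adjusted p = 0.0237), and MLXIPL gave 0.14 ± 0.14 (adjusted p = 0.424). TXNIP, a target of these factors, rose by 1.40 ± 0.20 in U266/LR7 (adjusted p = 0.00241) and had a fold of 0.45 ± 0.20 in U266/s (adjusted p = 0.0857). Of 9 other E-box factors, 3 fell and 2 rose in U266/s, where 24.9% of all genes fell and 18.4% rose. They included MITF (-1.11), TFAP4 (-0.88), USF1 (-0.80) and USF2 (0.87). In U266/LR7 MITF also fell (-1.47), while USF1 (0.66) and TFE3 (0.58) rose. USF1 passed in opposite directions in the 2 lines, and its responses differed by 1.45 ± 0.18 (adjusted p = 0.000355).

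With melphalan in U266/s 24.9% of all genes fell and 18.4% rose, and of the 9208 genes above the median mean signal 39.0% fell and 18.6% rose. Among cofactors of the repressors, 7 of 11 measured SIN3 complex genes fell in U266/s with melphalan and 1 rose. ARID4B fell by 2.37 ± 0.18, HDAC2 by 0.99 ± 0.17, SAP30 by 0.98 ± 0.13 and SIN3A, the scaffold, by 0.87 ± 0.12 (adjusted p of 5.43e-06, 0.000817, 0.000156 and 0.000218). The median was -0.85, against 0.08 over all genes and -0.17 over those above the median signal, and 6 fell with each of the 3 scalings. In U266/LR7 limma called 0 of these 11 genes, where 6.62% of all genes were called, and 0 had an unadjusted p under 0.05. Of 11 measured PRC1.6 genes, partners of MGA, 5 fell in U266/s and 0 rose, near the share of the brighter genes. PCGF6, the subunit that defines this complex, fell by 1.94 ± 0.19, TFDP2 by 1.0 ± 0.16, YAF2 by 0.75 ± 0.17 and RYBP by 0.73 ± 0.15 (adjusted p of 1.51e-05, 0.000423, 0.00477 and 0.00247). Quantile and cyclic loess normalization gave 4 lower and 1 higher, and without the U266/s control 3 were lower.

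Of 12 measured coactivator genes of MYC, 5 fell and 2 rose in U266/s with melphalan, near the share of genes above the median signal that fell (39.0%). ACTL6A and RUVBL1, chromatin remodelling subunits, fell by 1.04 ± 0.17 and 0.82 ± 0.14, and the histone acetyltransferase KAT2A rose by 0.66 ± 0.14. TRRAP, which MYC binds to recruit acetyltransferases, fell by 0.53 ± 0.18 (adjusted p = 0.0336), a call held in 1 of 3 scalings. The balance turned with scaling, to 4 higher and 4 lower with median centring and to 4 higher and 2 lower with quantile or cyclic loess normalization, so no direction is given for the list. Without the control, melphalan or inhibitor array of U266/s 2 were lower. CDK9, the kinase of the elongation factor P-TEFb, rose by 0.51 ± 0.12 (adjusted p = 0.00497), and HEXIM1, its inhibitor, by 2.62 ± 0.21 (adjusted p = 5.8e-06). ZBTB17, through which MYC represses genes, gave 0.34 ± 0.14 (adjusted p = 0.0773). Without melphalan 5 coactivator genes were lower and 2 higher in U266/LR7, where 17.8% of all genes were lower and 16.9% higher. The lower ones were led by TRRAP (-0.96), WDR5 (-0.93), RUVBL1 (-0.74) and SMARCB1 (-0.67). The count of higher genes was 0 without any 1 of the U266/LR7 arrays, or without the control or inhibitor array of U266/s.

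Of 21 measured genes that control MYC protein turnover, 14 fell and 2 rose in U266/s with melphalan, where 39.0% of genes above the median signal and 24.9% of all genes fell. With the 3 scalings 11 to 14 fell. They included both F-box genes that direct MYC to degradation, SKP2 (-1.61 ± 0.14, adjusted p = 1.05e-05) and FBXW7 (-1.12 ± 0.14, adjusted p = 6.3e-05). They also included USP28, a deubiquitinase that protects MYC (-1.53), AURKA, a kinase that stabilizes MYCN protein (-1.95), and BTRC (-1.55), while HUWE1 gave -0.29 ± 0.15 (adjusted p = 0.14). In U266/LR7 5 of 21 fell, where 3.61% of all genes and 5.38% of genes above the median signal fell. BTRC gave -1.15 there, PLK1 -0.97 and FBXW7 -0.78. SKP2 did not fall there (0.49 ± 0.14, adjusted p = 0.0655), and its responses differed by 2.10 ± 0.20 (adjusted p = 0.000107). No protein was measured.

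Of 23 measured regulators of the MYC gene and its mRNA, 16 fell and 2 rose in U266/s with melphalan, against the same 39.0% and 24.9% lower. With the 3 scalings 13 to 16 fell. IGF2BP2 and IGF2BP3, which bind and stabilize mRNAs, fell by 1.53 ± 0.18 and 1.5 ± 0.21, CTNNB1 by 1.27 ± 0.14 and CTCF by 1.18 ± 0.14. IRF4 fell in both lines, by 0.50 ± 0.10 in U266/LR7 (adjusted p = 0.0122) and by 0.46 ± 0.10 in U266/s (adjusted p = 0.00294). PRDM1, which represses MYC during plasma cell differentiation, fell in U266/s by 1.14 ± 0.11 (adjusted p = 1.64e-05), with -0.20 ± 0.11 in U266/LR7 (adjusted p = 0.38). MYC and its repressor gene PRDM1 hence fell on the same arrays. Between the lines without melphalan 11 regulators were lower and 1 higher in U266/LR7 (6 lower without the U266/s control), where 17.8% of all genes were lower. They were led by the lymphoid factor IKZF1 (-3.99 ± 0.19), IGF2BP2 (-2.97 ± 0.18), IGF2BP1 (-1.85 ± 0.14) and HNRNPD (-0.85 ± 0.13). IRF4 gave -0.09 ± 0.10 there (adjusted p = 0.539).

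On arrays without melphalan, genes known to be activated by MYC were more often lower than higher in U266/LR7, the line with low MYC and high MYCL signal. Without melphalan 51 of 92 measured targets were lower and 7 higher in U266/LR7, which is 55.4% lower. The background was 17.8% over all genes and 22.7% over the 9208 genes above the median mean signal, where 91 of the 92 targets lay. The median fold was -0.43, against -0.04 over all genes. With each of the 3 scalings, between 49 and 55 were lower. Fewer targets were called lower without the U266/s control array. A fit without the melphalan by line term, whose line difference pools both melphalan states, gave 25 lower.

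By role, 15 of 25 nucleolar and ribosome synthesis targets were lower in U266/LR7 without melphalan, with BOP1 at -1.80 ± 0.16, NOP2 at -1.50 ± 0.13, MYBBP1A at -1.32 ± 0.15 and WDR43 at -1.15 ± 0.14. The classic target NCL, which encodes nucleolin, gave -0.17 ± 0.11 (adjusted p = 0.318), and NPM1, nucleophosmin, was higher by 0.60 ± 0.11 (adjusted p = 0.0015). Of 20 nucleotide and polyamine synthesis targets 13 were lower, with the rate-limiting polyamine enzyme ODC1 at -1.28 ± 0.17, SHMT2 at -0.92 ± 0.10 and PPAT at -0.91 ± 0.15, and 5 were lower without the U266/s control. Of 18 metabolism and transport targets 9 were lower, led by the hexokinase HK2 (-2.57 ± 0.16), the amino acid transporter SLC7A5 (-2.21 ± 0.14) and the folate carrier SLC19A1 (-1.59 ± 0.17). Of 15 cell cycle targets 6 were lower, including CUL1 (-1.49 ± 0.15), CDK4 (-0.96 ± 0.10) and TERT (-0.85 ± 0.14), whereas LIN28B was higher by 2.58 ± 0.15 (adjusted p = 1.82e-07). Of 14 translation and folding targets 8 were lower, led by PUS7 (-0.90 ± 0.17).

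With melphalan in U266/s, where MYC fell, 43 of the 92 targets fell and 4 rose. That is 46.7% lower, against 24.9% of all genes but 39.0% of genes above the median signal. The nearer background for these bright genes is thus close to their share. UTP20 fell by 2.30 ± 0.18, POLR1B by 1.77 ± 0.17, CUL1 by 1.65 ± 0.15, RCL1 by 1.47 ± 0.15, PPAT by 1.47 ± 0.15, PUS7 by 1.45 ± 0.17 and the glucose transporter SLC2A1 by 1.40 ± 0.15. ODC1, NCL and NPM1 did not pass (0.22, -0.01 and 0.09), while CDK4 fell by 0.61 ± 0.10 (adjusted p = 0.000594) and ID2 rose by 1.35 ± 0.21 (adjusted p = 0.000382). Scaling changed the count, to 36 lower and 6 higher after median centring, 33 and 11 after quantile normalization, and 24 and 14 after cyclic loess. Without the U266/s control 20 were lower, and without its melphalan array 27. In U266/LR7 10 of the 92 rose and 0 fell by limma, with 6 lower at an unadjusted p under 0.05, against 3.02% of all genes and 4.74% of genes above the median signal called higher. Median centring gave 7 higher and 1 lower, quantile normalization 9 and 1, and cyclic loess 6 and 1. Leaving out the U266/LR7 melphalan array brought the higher targets to 1, its combination array to 0, and the control or inhibitor array of U266/s to 6. SLC7A5 (0.76 ± 0.14), NOP2 (0.71 ± 0.13) and ODC1 (0.63 ± 0.17) were among those that rose, ODC1 with an adjusted p of 0.046 that held in 1 of 3 scalings. Responses differed for 34 targets, 32 of them toward higher values in U266/LR7, with 28.5% as the background of bright genes called in that direction. Leaving out the U266/LR7 melphalan array brought that number to 20, and leaving out the U266/s control to 18, while cyclic loess gave 20.

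**Figure D4:**
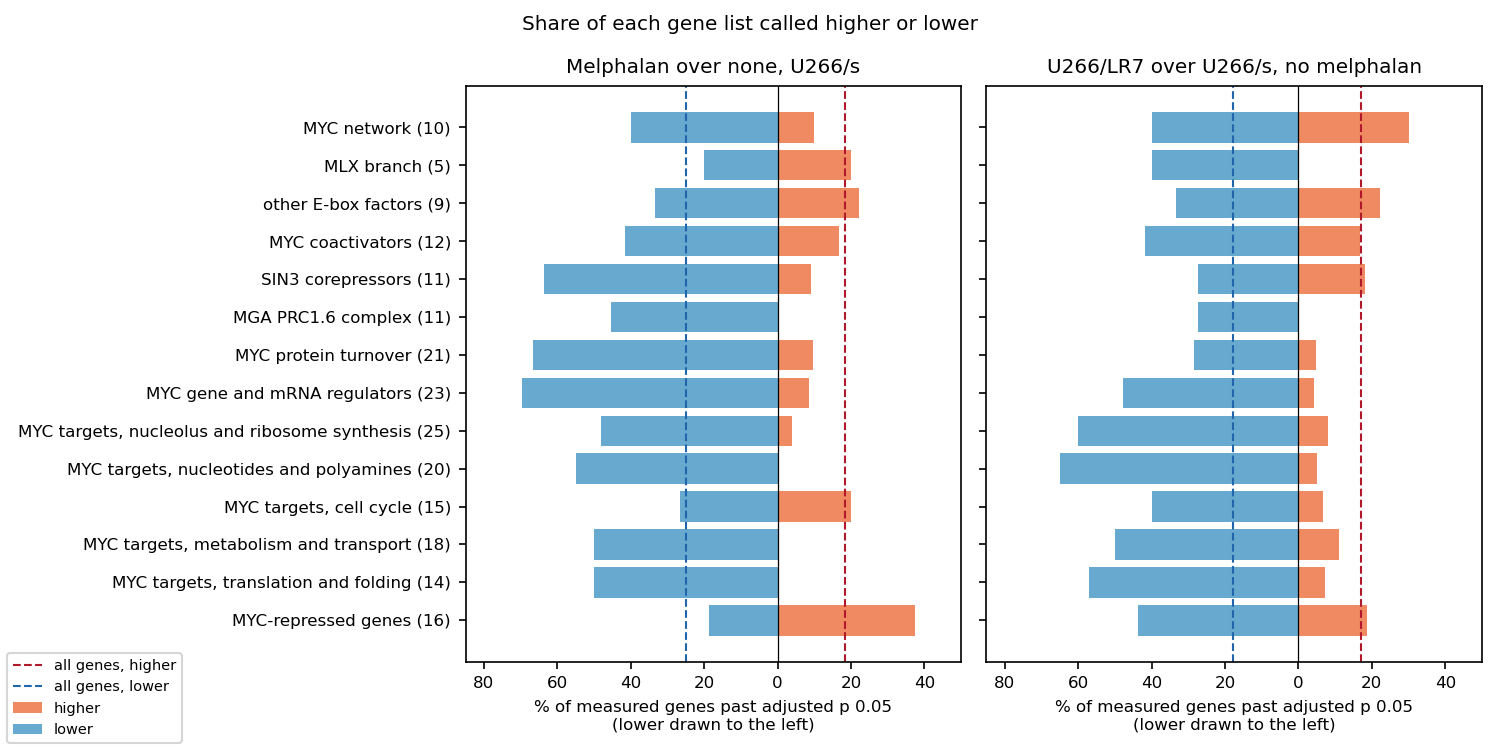
Share of the measured genes of each list (number measured in brackets) called higher (right) or lower (left) by limma, for melphalan over none in U266/s and for U266/LR7 over U266/s without melphalan. Dashed lines give the share over all 18417 genes (18.4% higher and 24.9% lower on the left panel). Among genes above the median signal 39.0% were lower on the left panel, and the cell cycle targets (4 of 15) lie under that share.

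With melphalan on both sides, the direction of the targets between the lines depended on the scaling. In the deposited values 28 of 92 were higher and 20 lower in U266/LR7. Median centring gave 23 and 24, quantile normalization 14 and 35, and cyclic loess 9 and 40. The deposited arrays of melphalan-treated U266/s had the narrowest signal range, and these targets are bright genes. No direction is therefore given for the targets as a group under melphalan. The MYC difference there was called lower in U266/LR7 under all 3 scalings.

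**Figure D5:**
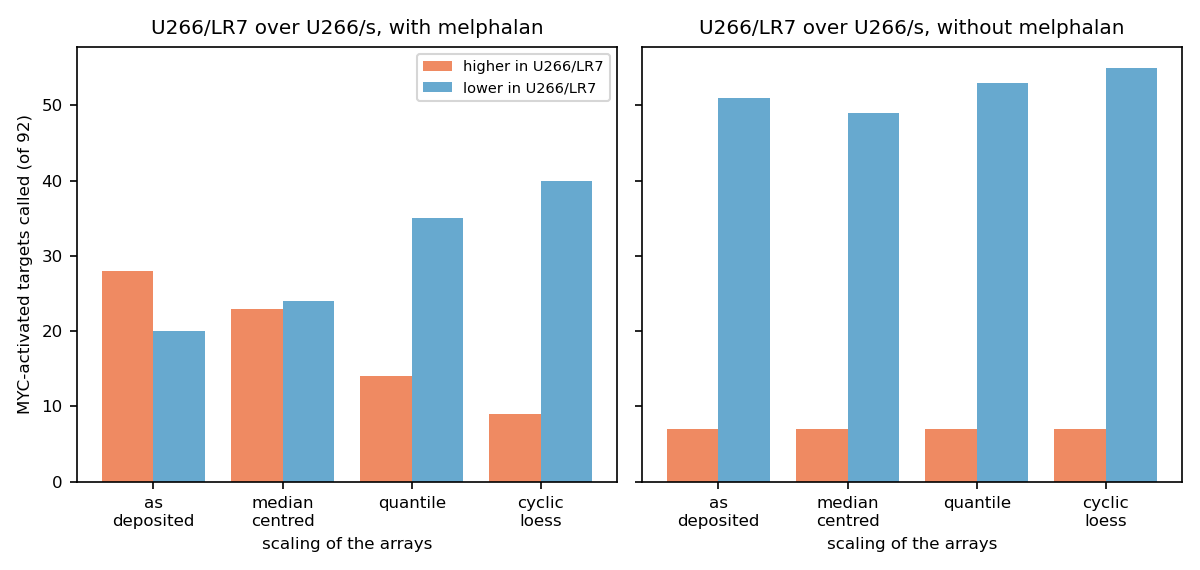
Number of the 92 measured MYC-activated targets called higher or lower in U266/LR7 over U266/s by limma, with melphalan (left) and without it (right), for the deposited values and 3 further scalings. On the left the counts turn from 28 higher and 20 lower to 9 higher and 40 lower, whereas on the right 49 to 55 are lower in every scaling.

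Of 16 measured genes that MYC is known to repress, 6 rose and 3 fell in U266/s with melphalan, where 18.4% of all genes rose and 24.9% fell. The cell cycle inhibitor CDKN1A rose by 1.34 ± 0.17 (adjusted p = 9.5e-05), GADD45B by 1.27 ± 0.18 and CCND1 by 1.10 ± 0.12, whereas CDKN1B fell by 1.07 ± 0.14. Without melphalan 3 were higher and 7 lower in U266/LR7, where MYC was lower, against 16.9% higher and 17.8% lower over all genes. CCND1 (1.24 ± 0.12) and CDKN1A (0.89 ± 0.17) were among the higher genes, and ITGAL (-1.80 ± 0.14), CDKN1B (-1.21 ± 0.14) and CDKN2B (-1.03 ± 0.16) among the lower.

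The genes whose signal followed MYC most closely over the 8 arrays were LGALS17A (Pearson r = 0.999), KIAA1217 (0.998), DOCK5 (0.998), GUCY1A1 (0.997) and CDC42BPA (0.997), out of 7411 genes with a range of at least 1 log2 unit. For MYCL they were GINM1 (0.996), TBC1D1 (0.993), TUSC3 (0.990), CARF (0.987) and CFAP91 (0.986). For MGA they were GMCL1 (0.995), IPP (0.995), RPAP2 (0.994), RESF1 (0.992) and ARMC1 (0.991). These values describe 8 arrays that share 2 lines and 2 melphalan states, so a gene that separates them the same way scores high.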

How the data were processed

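Total RNA of 8 samples was measured on 1-colour Affymetrix arrays, 1 per condition. The deposited log2 signals came from Expression Console, Affymetrix's own software, with the RMA method, per the submitters' processing notes. RMA corrects background, equalizes the distributions of arrays and summarizes probes, so a change shared by most genes can be reduced. Its version is not given in the sources used here. Of 33297 transcript clusters, 19460 had 1 gene symbol in the platform annotation, 1754 several and 12083 none there, and 19429 matched a RefSeq gene by gene ID. The brightest cluster per gene left 18417 genes.

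From these values, limma 3.58.1 (R 4.3.3) fitted line, melphalan, their interaction and inhibitors on all 8 arrays, with an intensity trend and 3 residual degrees of freedom. The median residual SD was 0.139. The number of arrays limits the precision. The fit was tested on simulated data for 18417 genes. It recovered altered genes of 1 log2 unit in 100% (melphalan in U266/s), 98% (melphalan in U266/LR7), 83% (interaction) and 100% of cases (inhibitors). No recovery is given for changes under 1 log2 unit, the size of several member calls. False calls numbered 12 to 24 per comparison. Noise was drawn independently for each gene, so shifts shared by many genes of an array were not covered.

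The members and 18 further lists (229 of 255 genes in all were measured) were chosen with earlier results of these data known. Named genes were all members, up to 4 genes per list with the largest absolute fold in the comparison described, a fixed set including ODC1, NCL, NPM1, CDK4, SKP2, IRF4, PRDM1 and HEXIM1, and the 5 genes most correlated with any member whose range was at least 1.5 log2 units. Alternatives covered 3 scalings, a filter on mean signal, the cluster choice, 2 variance models, 3 other designs and each array left out.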

Additional observations from a re-analysis of the deposited data

Results flagged for a closer look

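The melphalan response differed between the lines, by the interaction in limma, for 3 members and 8 other genes of the fixed set. It did so for 23.9% of all genes. The response in U266/LR7 minus that in U266/s was 2.62 for MYC, 1.28 for MGA and -0.74 for MYCL. It was 2.10 for SKP2, 1.11 for MLX, 1.05 for SIN3A, 0.95 for PRDM1, 0.94 for TXNIP and 0.92 for CDK4. It was -0.71 for MLXIP and -0.99 for HEXIM1, whose rise was larger in U266/s. The TXNIP call held in 1 of 3 scalings. No group had 4 or more arrays of 1 condition, so no single array could be tested against its group.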

How the results depend on the processing

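No fit with a replicate as a block could be made, since each condition has 1 array and the labels give no replicate numbers. Arrays were matched by condition, through the terms for line, melphalan and inhibitors. With 1 array left out, members called ranged from 2 to 6 for melphalan in U266/s, 0 to 0 in U266/LR7, 1 to 4 for the interaction, 5 to 7 between the lines without melphalan, 4 to 6 with it, and 0 to 0 for inhibitors. Genes called ranged from 4258 to 8746 in U266/s (7984 with all arrays), 250 to 1472 in U266/LR7 (1220), 2443 to 5253 for the interaction (4394), 6152 to 10130 between the lines with melphalan (9529), 4430 to 6403 without it (6397), and 0 to 11 for inhibitors (8). Activated targets ranged from 20 to 47 lower in U266/s, 18 to 38 higher for the interaction and 33 to 52 lower between the lines without melphalan.

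Transfection as 3 levels gave 3 members called in U266/s, 679 genes in U266/LR7 and 20 for inhibitors. The additive fit has a line difference pooled over both melphalan states. It gave 8 members and 6172 genes called between the lines, 25 lower targets, and 0 genes for inhibitors. Cyclic loess gave 1 member in U266/LR7, 24 lower targets in U266/s, 20 higher targets for the interaction and 1 gene for inhibitors. The filter on mean signal gave 6207 genes between the lines with melphalan and 13 for inhibitors, where fewer genes were tested. Inhibitors called 5 genes with quantile normalization, 5 with every cluster tested and 20 with all two-way interactions. The causes of these shifts were otherwise not tested.

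Scaling also moved the share of called genes that were higher. It was 74.9% for the interaction, against 63.4%, 55.1% and 61.1% with median centring, quantile and cyclic loess. In U266/LR7 it was 45.6%, against 36.3%, 35.8% and 30.6%, and in U266/s 42.5%, against 51.3%, 53.4% and 43.0%. No called fold of a member changed sign in any alternative.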
